A study of Homo sapiens with 6 samples.

Results

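The genes described here encode the machinery of RNA interference: the Argonaute proteins AGO1, AGO2, AGO3 and AGO4, the nucleases DICER1 and DROSHA, and the partners DGCR8, TARBP2, TNRC6A and XPO5. Their members on the array were all probe sets whose single gene symbol in the platform's probe table is one of these 10 genes, which gave 31 of 54675 probe sets and covered 9 of the 10 genes, out of 19775 genes with such a probe set. DGCR8 had no such probe set, because each of its 4 probe sets also carries the symbol MIR1306. The study used the human bladder cancer line RT-112 in 3 groups of 2 arrays each: cells given siPPP2R2A_1, cells given siPPP2R2A_2, and cells given a scramble control siRNA. Both PPP2R2A siRNAs target the transcript of a regulatory subunit of protein phosphatase 2A. In every group, per the labels' protocols, cells at 50% confluence were transfected with 50 nM siRNA in Lipofectamine RNAiMAX, transfected again 24 h later, and collected after another 24 h. The controls thus also received a small RNA that can enter the interference machinery, and no group was left without one, so each comparison sets a targeting siRNA against a scramble siRNA. The series' text calls the 2 arrays of a group technical duplicates, so the p-values and intervals measure only the spread between duplicates.

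RNA interference silences transcripts by base pairing. In the nucleus, Drosha and its partner DGCR8 cut primary microRNA transcripts into hairpins, and exportin-5, the product of XPO5, carries the hairpins to the cytoplasm, where Dicer with TRBP, the product of TARBP2, trims them to short duplexes. A transfected siRNA already has the form of a Dicer product, so it bypasses these steps and is loaded directly into an Argonaute, whose TNRC6 partner recruits the enzymes that shorten and degrade the target. AGO2 is the human Argonaute best known for cutting a fully matched target, the reaction that siRNAs rely on. Loaded siRNAs and endogenous microRNAs share a limited pool of Argonaute.

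The targeted transcript had lower signals with both siRNAs. PPP2R2A read on its brightest probe set 336 and 397 with siPPP2R2A_1 and 509.96 and 533 with siPPP2R2A_2, against 1381 and 1589 with scramble. Another of its tested probe sets was lower in the same way. The third read 334 and 221 with siPPP2R2A_1 and 179 and 272 with siPPP2R2A_2, against 287 and 281 with scramble, so there only siPPP2R2A_1 overlapped scramble. Array medians, which served as the filter level, lay between 69.3 and 76.2. Over the tested probe sets Pearson's r was 0.972 to 0.974 within duplicates and 0.963 to 0.9696 across groups. The 3' to 5' ratio of the ACTB control probe sets, which grows as RNA breaks or labelling stops short, averaged 7.17 with siPPP2R2A_1 and 9.92 with siPPP2R2A_2, against 5.68 with scramble, whereas that of GAPDH averaged 1.01, 0.972 and 1.00. By array (A and B), the ACTB ratio was 6.52 and 7.82 with siPPP2R2A_1, 7.47 and 12.4 with siPPP2R2A_2, and 5.43 and 5.94 with scramble. All 10 epithelial and urothelial markers examined passed the filter. With siPPP2R2A_2 their median log2 change was -0.21 and 5 of 10 were lower at an unadjusted p under 0.05 (8.11% of all probe sets), and their summed signal was 114730 and 122610, against 139110 and 134410 with scramble. With siPPP2R2A_1 their median was 0.01 and 0 passed that level. The part of this shift in the values of the machinery genes with siPPP2R2A_2 was not tested. The filter was also passed by 1 of 4 leukocyte, 2 of 4 endothelial and 2 of 5 fibroblast markers that had a probe set. Of those markers, COL1A1 read between 867 and 1175 on every array. Signals come from bulk RNA, in which fewer cells with a transcript and less of it per cell cannot be told apart.

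No member was called with either siRNA. A probe set was tested when its signal was above the array's median on at least 2 arrays, which kept 24 of the 31 members. Of these, 20 were above that level on all 6 arrays and 4 on some of them. The 7 untested probe sets, from AGO4, DICER1 and TNRC6A, read between 0.90 and 79.4. In limma's moderated test with Benjamini-Hochberg adjustment over all 29374 probe sets tested, a probe set was called when it differed by 1.5-fold or more at an adjusted p below 0.05. The count was 0 of 24 members with siPPP2R2A_1, 0 of 24 with siPPP2R2A_2, and 0 of 24 for the mean of both, against 0%, 0% and 0.0034% of all probe sets. At an unadjusted p under 0.05, 2 members passed with siPPP2R2A_1 (8.33%, against 13% of all probe sets) and 5 with siPPP2R2A_2 (20.8%, against 16.7% of all). The 2 were both of TNRC6A, and the 5 were 4 of AGO3 and 1 of XPO5. Probe sets of 1 gene are not independent. On the brightest probe set per gene 0 and 1 of 9 passed, against 2066 and 2642 of all 12749 genes fitted that way. For the mean of both siRNAs 5 of the 24 members were higher and 1 lower at that level, against 8.01% higher and 6.71% lower of all probe sets. Both siPPP2R2A_1 arrays were above both scramble arrays for 8 members and below them for 5, against 22.9% and 22.7% of all probe sets. Both siPPP2R2A_2 arrays were above for 10 and below for 3, against 24.3% and 25.1%. The power of this test for moderate changes was low on simulated data. There it recovered 0% of 69 2-fold changes, and 65.6% and 68.8% of 64 4-fold changes with siPPP2R2A_1 and siPPP2R2A_2. The simulation changed few of its 29374 probe sets and drew normal noise, so its rates need not hold for the real arrays. With an intensity trend, in which limma lets the expected spread depend on the signal level, 52.2% and 42% of 2-fold changes were recovered. That setting called 1.61% and 3.11% of all probe sets in the real data. Among members it called 1 of 24 with each siRNA, a TNRC6A probe set that rose with siPPP2R2A_1 and an XPO5 probe set that fell with siPPP2R2A_2. For the mean of both it called 0 of 24, against 1.68% of all. Outside the members, it also called 213310_at higher with both siRNAs and 225569_at higher with siPPP2R2A_2. Both carry AGO2 beside another symbol and are described below.

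The log2 changes of the 24 members centred close to 0. Their median was 0.09 with siPPP2R2A_1 and 0.08 with siPPP2R2A_2, against 0.00 and -0.01 over all probe sets tested. With siPPP2R2A_1, 14 of 24 lay above 0, and with siPPP2R2A_2, 16 of 24 did, against 49.3% and 48.9% of all probe sets. AGO3 had 3 of 4 probe sets above 0 with siPPP2R2A_1 and 4 of 4 with siPPP2R2A_2, and TNRC6A had 4 of 4 with each. These 2 genes were set aside after their values were seen, which by itself lowers the share of the rest. Without them, 7 of 16 probe sets lay above 0 with siPPP2R2A_1 (median -0.04) and 8 of 16 with siPPP2R2A_2 (median 0.00).

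**Figure D1:**
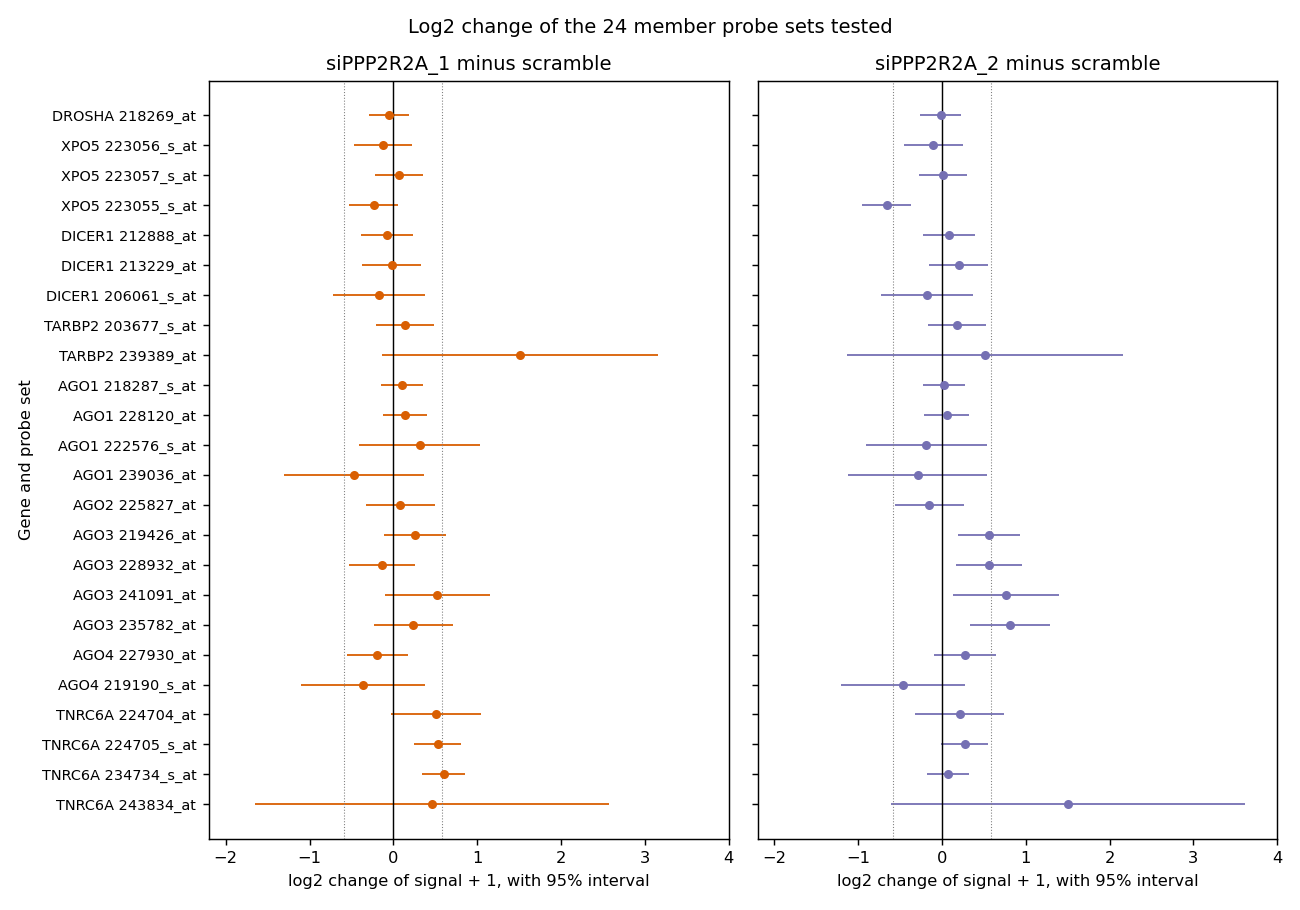
Log2 change (signal + 1) of the 24 tested probe sets against scramble, with siPPP2R2A_1 on the left and siPPP2R2A_2 on the right. Points are means of 2 arrays per group, bars are limma's 95% intervals, and dotted lines mark a 1.5-fold change. The 4 AGO3 probe sets lie to the right of 0 with siPPP2R2A_2 (0.56 to 0.81), 3 TNRC6A probe sets lie near 0.5 to 0.6 with siPPP2R2A_1, and 223055_s_at of XPO5 lies at -0.66 with siPPP2R2A_2.

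Of the nuclear steps, DROSHA, the nuclease of the Microprocessor, varied least. Its single probe set read 4598 and 4659 with siPPP2R2A_1 and 4671 and 4825 with siPPP2R2A_2, against 4782 and 4831 with scramble. Both siPPP2R2A_1 arrays were below both scramble arrays, and the siPPP2R2A_2 arrays overlapped them. The log2 change was -0.05 (95% interval -0.29 to 0.19, limma adjusted p = 0.851) with siPPP2R2A_1 and -0.02 (-0.26 to 0.22, adjusted p = 0.943) with siPPP2R2A_2. A change of 1.5-fold in either direction lies outside both intervals, which cover only the spread between duplicates.

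XPO5, the exporter of hairpin precursors, gave different readings on its 3 probe sets. The brightest, 223056_s_at, read 1813 and 1643 with siPPP2R2A_1 and 1717 and 1782 with siPPP2R2A_2, against 2062 and 1716 with scramble. The groups overlapped, and the log2 changes were -0.12 and -0.10 (adjusted p = 0.752 and 0.743). A second, 223057_s_at, stood at 0.06 and 0.01. The dimmest, 223055_s_at, read 534 and 585 with siPPP2R2A_1 and 411 and 422 with siPPP2R2A_2, against 695 and 624 with scramble. On it all 4 targeting arrays were below both scramble arrays, the 1 member of 24 for which this held (10.9% of all probe sets). Its log2 change was -0.24 with siPPP2R2A_1 (adjusted p = 0.468) and -0.66 with siPPP2R2A_2 (95% interval -0.95 to -0.37, adjusted p = 0.121, and 0.0167 with an intensity trend). The 2 other XPO5 probe sets had 95% intervals of -0.46 to 0.25 and -0.28 to 0.29 with siPPP2R2A_2, which do not reach its value.

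DGCR8, the RNA-binding partner of Drosha, has no probe set that names it alone. The 4 probe sets that carry DGCR8 with MIR1306 were all above the filter level, and none was called. Their log2 changes ran from -0.14 to 0.09 with siPPP2R2A_1 and from -0.14 to 0.17 with siPPP2R2A_2. Which of the symbols these signals belong to cannot be read from the table.

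The cytoplasmic processing genes also showed no called difference. DICER1, which encodes the nuclease that cuts hairpins into duplexes, read on its brightest probe set 3235 and 3204 with siPPP2R2A_1 and 3901 and 3315 with siPPP2R2A_2, against 3390.5 and 3393 with scramble. Both siPPP2R2A_1 arrays were below scramble, while the siPPP2R2A_2 arrays stood on either side of it. The log2 changes were -0.08 (95% interval -0.38 to 0.23) and 0.08 (-0.22 to 0.39), with adjusted p = 0.837 and 0.767 by limma. The other tested DICER1 probe sets, 213229_at and 206061_s_at, had log2 changes of -0.02 and -0.17 with siPPP2R2A_1 and of 0.20 and -0.18 with siPPP2R2A_2. The dim and untested 216280_s_at and 216281_at read at most 8.74 with the targeting siRNAs, against 19.3 to 37.7 with scramble, all below the filter level. Averaged over all 6 probe sets, these dim ones included, DICER1 stood at -0.89 with siPPP2R2A_1 and -0.60 with siPPP2R2A_2, without a call.

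TARBP2, whose product TRBP binds double-stranded RNA beside Dicer, read on 203677_s_at 699.8 and 738 with siPPP2R2A_1 and 778 and 699.7 with siPPP2R2A_2, against 601 and 709 with scramble. The groups overlapped, at log2 changes of 0.14 and 0.18 (adjusted p = 0.714 and 0.5615). Its second probe set, 239389_at, had the highest log2 change of any member with siPPP2R2A_1, 1.51, with a 95% interval of -0.14 to 3.15. The signals behind it were 115 and 165 with siPPP2R2A_1 and 58.6 and 79.98 with siPPP2R2A_2, against 25.2 and 89.6 with scramble. The scramble duplicates thus differed more than 3-fold and 1 of them was below the filter level, so the size of that change rests on the background level. Averaged over both probe sets, TARBP2 stood at 0.82 with siPPP2R2A_1 and 0.34 with siPPP2R2A_2, without a call.

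**Figure D2:**
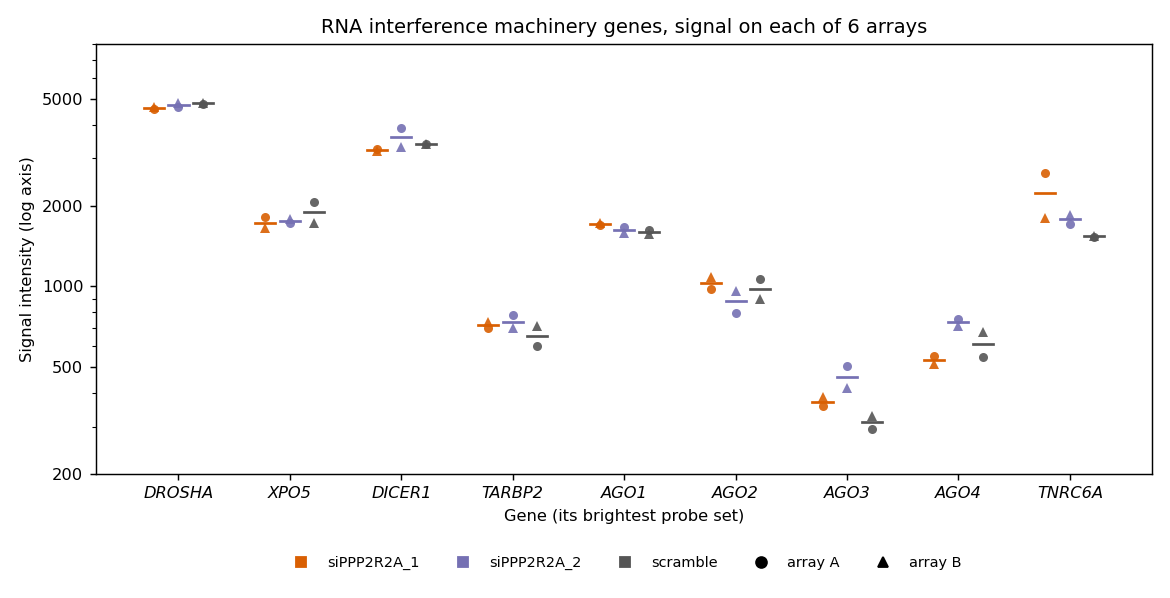
Signal intensity, on a log axis, of the brightest member probe set of each of the 9 genes on each array, ordered by the step of the pathway. Circles and triangles are arrays A and B, bars are group means, and colours mark siPPP2R2A_1, siPPP2R2A_2 and scramble from left to right. The groups of DROSHA lie within 4598 to 4831, AGO3 is higher on both siPPP2R2A_2 arrays (504 and 417) than on both scramble arrays (293 and 328), and 1 siPPP2R2A_1 array of TNRC6A (2641) stands above its duplicate (1798).

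Among the Argonautes, AGO3 read higher than scramble on both siPPP2R2A_2 arrays on each of its 4 probe sets, and none of these was called. AGO3 binds small RNAs like the other Argonautes but is not known as a general slicer. On 219426_at, its brightest probe set, the signals were 358 and 385 with siPPP2R2A_1 and 504 and 417 with siPPP2R2A_2, against 293 and 328 with scramble. On this probe set all 4 targeting arrays were above both scramble arrays. On 235782_at they were 215 and 159 with siPPP2R2A_1 and 261 and 289 with siPPP2R2A_2, against 165 and 147 with scramble, so only the siPPP2R2A_2 arrays were clear of scramble. On 241091_at they were 209 and 228 with siPPP2R2A_1 and 304 and 218 with siPPP2R2A_2, against 128 and 178 with scramble, again with all 4 targeting arrays above. On 228932_at they were 172 and 166.5 with siPPP2R2A_1 and 309 and 245 with siPPP2R2A_2, against 177 and 197 with scramble, and here both siPPP2R2A_1 arrays lay below scramble.

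In that order the AGO3 log2 changes with siPPP2R2A_2 were 0.56, 0.81, 0.76 and 0.56, with 95% intervals whose lower bounds ran from 0.14 to 0.33. Both siPPP2R2A_2 arrays were above both scramble arrays on 4 of 4 AGO3 probe sets, against 24.3% of all probe sets tested. All 4 had an unadjusted p under 0.05, against 8.63% of all probe sets in the higher direction, and none was called (limma adjusted p = 0.157 to 0.234, and 0.066 to 0.164 with an intensity trend). The 4 probe sets read 1 gene on the same arrays and are not independent of each other. With siPPP2R2A_1 the log2 changes were 0.26, 0.24, 0.53 and -0.14, with adjusted p from 0.453 to 0.751. Averaged over its probe sets, AGO3 stood at a log2 change of 0.22 with siPPP2R2A_1 and 0.67 with siPPP2R2A_2 (adjusted p = 0.556 and 0.171). The mean ratio of ACTB 3' to 5' signals stood highest in the same group (9.92 with siPPP2R2A_2, against 5.68 with scramble). Its siPPP2R2A_2 arrays differed, at 7.47 on A and 12.4 on B, and A lay below siPPP2R2A_1 array B (7.82). The part of this ratio in the AGO3 values was not tested.

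AGO4, AGO1 and AGO3 follow one another in this order on the same strand of chromosome 1. AGO1 and AGO4 bind microRNAs and silence mainly through TNRC6 partners rather than by slicing. Windows from 250 bases before to 50 bases after an annotated start (RefSeq, GRCh38.p14) are shown for the 3 neighbours, because AGO3 stood apart from AGO1 with siPPP2R2A_2, and for TNRC6A, whose 3 bright probe sets were above scramble on all 4 targeting arrays. Of the 10 genes 9 were matched by symbol, and AGO2 was not used here. All are on the plus strand, 5' to 3', and capitals mark the GC box GGGCGG or its reverse complement CCGCCC.
AGO3, chr1:35930855-35931154: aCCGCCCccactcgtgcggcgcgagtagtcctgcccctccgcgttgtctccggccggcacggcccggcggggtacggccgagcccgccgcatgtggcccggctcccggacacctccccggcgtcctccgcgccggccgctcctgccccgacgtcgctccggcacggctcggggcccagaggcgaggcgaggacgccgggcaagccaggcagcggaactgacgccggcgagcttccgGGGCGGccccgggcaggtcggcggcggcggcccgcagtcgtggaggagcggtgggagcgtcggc
AGO1, chr1:35882959-35883258: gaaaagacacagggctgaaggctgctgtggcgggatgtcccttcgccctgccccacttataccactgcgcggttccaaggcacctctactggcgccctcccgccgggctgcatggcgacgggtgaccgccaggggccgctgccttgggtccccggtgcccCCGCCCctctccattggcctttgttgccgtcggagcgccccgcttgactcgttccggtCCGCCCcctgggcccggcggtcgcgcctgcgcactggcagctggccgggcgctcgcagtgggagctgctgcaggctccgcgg
AGO4, chr1:35807766-35808065: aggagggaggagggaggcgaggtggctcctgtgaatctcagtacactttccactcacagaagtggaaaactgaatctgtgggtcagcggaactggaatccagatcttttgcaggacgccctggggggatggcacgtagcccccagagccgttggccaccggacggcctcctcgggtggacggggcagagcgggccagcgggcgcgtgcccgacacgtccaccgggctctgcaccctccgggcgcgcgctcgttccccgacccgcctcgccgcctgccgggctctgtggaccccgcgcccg
TNRC6A, chr16:24729401-24729700: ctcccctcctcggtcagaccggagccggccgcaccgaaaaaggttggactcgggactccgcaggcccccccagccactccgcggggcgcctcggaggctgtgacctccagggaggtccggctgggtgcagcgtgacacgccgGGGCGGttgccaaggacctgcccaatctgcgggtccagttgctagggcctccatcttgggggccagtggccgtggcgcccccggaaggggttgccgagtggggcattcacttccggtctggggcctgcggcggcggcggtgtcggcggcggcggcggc

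These windows are rich in G and C, at 80.0% for AGO3, 72.3% for AGO1, 69.0% for AGO4 and 73.7% for TNRC6A, against a median of 58.7% over all 34943 windows. The AGO3 window holds 50 CpG dinucleotides, against 30 in AGO1, 29 in AGO4, 31 in TNRC6A and a median of 14 over all windows. Searched on both strands, the GC box occurs 2 times in the AGO3 window, 2 times in AGO1, 0 times in AGO4 and 1 time in TNRC6A, and at least 1 time in 44.9% of all windows. The TATA box TATAAA, searched the same way, is in none of the 15 windows of the 9 matched genes and in 11.6% of all windows.

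AGO1 stood close to its scramble level on the 2 probe sets that were well above the filter. On 218287_s_at the signals were 1697 and 1725 with siPPP2R2A_1 and 1659.8 and 1577 with siPPP2R2A_2, against 1626.5 and 1560.1 with scramble. Both siPPP2R2A_1 arrays were above scramble by a small margin and the siPPP2R2A_2 arrays overlapped it. The log2 changes were 0.10 (95% interval -0.15 to 0.35) and 0.02 (-0.23 to 0.27), and those of 228120_at were 0.14 and 0.06. The 2 dimmer AGO1 probe sets, at means of 107 and 65.5 over the 6 arrays, had log2 changes from -0.47 to 0.31 with siPPP2R2A_1 and from -0.29 to -0.19 with siPPP2R2A_2.

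AGO4 read on 227930_at 549 and 515 with siPPP2R2A_1 and 756 and 713 with siPPP2R2A_2, against 546 and 674 with scramble. Both siPPP2R2A_2 arrays were above all the others, while siPPP2R2A_1 and scramble overlapped. The log2 changes were -0.19 (adjusted p = 0.629) with siPPP2R2A_1 and 0.27 (95% interval -0.09 to 0.64, adjusted p = 0.405) with siPPP2R2A_2. The other tested AGO4 probe set, 219190_s_at, was near the filter level and pointed the other way with siPPP2R2A_2 (-0.47).

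AGO2, the slicing Argonaute, did not differ from scramble beyond its duplicates on the 1 probe set that names it alone. On 225827_at the signals were 976 and 1085 with siPPP2R2A_1 and 796 and 961 with siPPP2R2A_2, against 1061 and 893 with scramble. Each siRNA's arrays overlapped those of scramble, while both siPPP2R2A_1 arrays were above both siPPP2R2A_2 arrays. The log2 change was 0.08 with siPPP2R2A_1 (95% interval -0.33 to 0.49, adjusted p = 0.872) and -0.15 with siPPP2R2A_2 (-0.57 to 0.26, adjusted p = 0.674).

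Another 3 probe sets carry AGO2 together with CASC7, a symbol that the RefSeq gene table lists as a synonym of AGO2, and they are outside the rule for members. They gave other readings. Where 1 probe set stands for AGO2 elsewhere, it is 225827_at, although 225569_at was brighter (means over the 6 arrays of 962 and 2497). On 213310_at the signals were 1707 and 1546 with siPPP2R2A_1 and 1952 and 1809 with siPPP2R2A_2, against 1012 and 991 with scramble, so all 4 targeting arrays were above both scramble arrays. The log2 changes there were 0.70 (adjusted p = 0.152, and 0.0046 with an intensity trend) and 0.91 (adjusted p = 0.0994, and 0.000976 with the trend). On 225569_at the signals were 1895 and 1805 with siPPP2R2A_1 and 3675 and 3160 with siPPP2R2A_2, against 2181 and 2267 with scramble. The siPPP2R2A_1 arrays were thus below scramble and the siPPP2R2A_2 arrays above it, at log2 changes of -0.27 and 0.62 (adjusted p = 0.444 and 0.136, and 0.2105 and 0.00552 with the trend). The dim 1561042_at overlapped between groups. With an intensity trend 213310_at was called with both siRNAs and 225569_at with siPPP2R2A_2, while 225827_at, the probe set that names AGO2 alone, was called with neither (0.842 and 0.583).

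TNRC6A encodes GW182, the scaffold that links Argonaute to the deadenylases. Its 3 bright probe sets were higher with siPPP2R2A_1. On 234734_s_at the signals were 1652.5 and 1719 with siPPP2R2A_1 and 1205 and 1140.5 with siPPP2R2A_2, against 1103 and 1123 with scramble. On 224705_s_at they were 2202 and 2094 with siPPP2R2A_1 and 1842 and 1747 with siPPP2R2A_2, against 1416.5 and 1563 with scramble. On 224704_at, the brightest, they were 2641 and 1798 with siPPP2R2A_1 and 1703 and 1847 with siPPP2R2A_2, against 1525 and 1542.5 with scramble. On each of the 3, all 4 targeting arrays were above both scramble arrays. In all, 5 of 24 members showed that separation (3 of TNRC6A and 2 of AGO3, 20.8%), against 11.8% of all probe sets.

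The log2 changes of these 3 TNRC6A probe sets with siPPP2R2A_1 were 0.60 (95% interval 0.35 to 0.85), 0.53 (0.25 to 0.81) and 0.51 (-0.03 to 1.04). By limma their adjusted p were 0.157, 0.213 and 0.406, and with an intensity trend 0.00879, 0.0157 and 0.134. Of them 234734_s_at was called with the trend, and 224705_s_at fell short of the 1.5-fold limit. With siPPP2R2A_2 the log2 changes were 0.07, 0.27 and 0.21 (adjusted p = 0.744, 0.311 and 0.661). The brightest rests on 1 array: without siPPP2R2A_1 array A its log2 change with siPPP2R2A_1 was 0.23, and without array B it was 0.78. The dim 243834_at read 150.5 and 49.9 with siPPP2R2A_1 and 168 and 193 with siPPP2R2A_2, against 32.0 and 122 with scramble, and its 95% intervals spanned more than 4 log2 units. Averaged over all 6 probe sets, TNRC6A stood at 0.13 with siPPP2R2A_1 and 0.28 with siPPP2R2A_2.

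**Figure D3:**
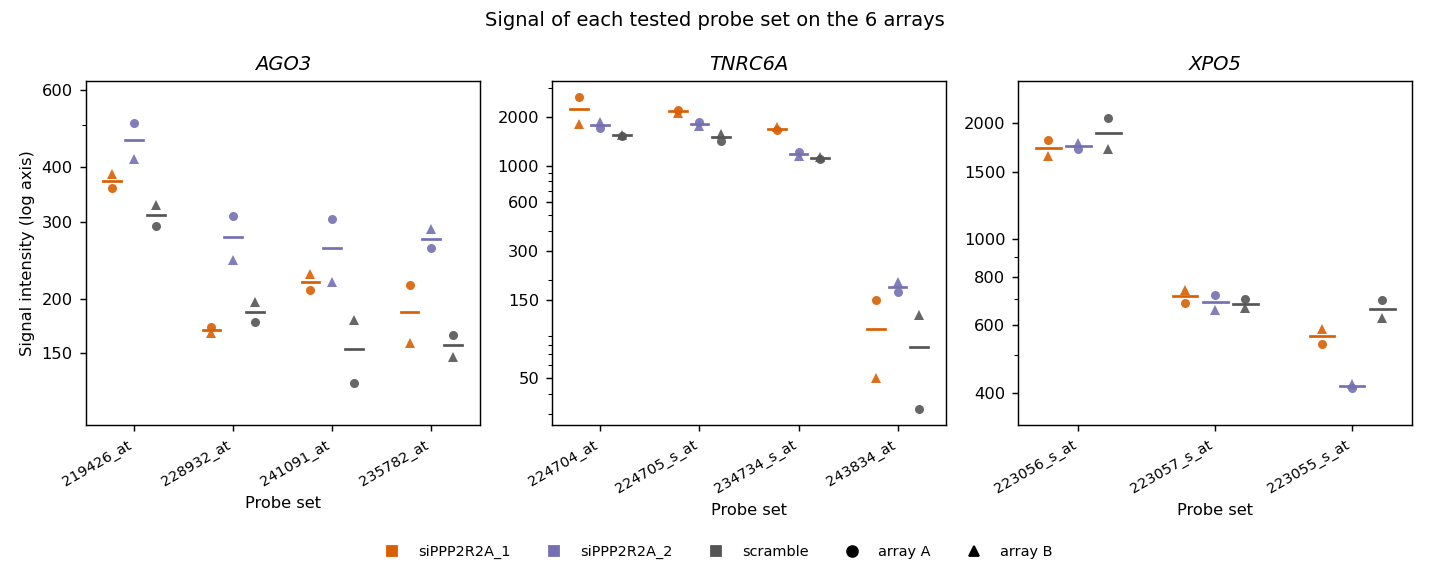
Signal intensity, on log axes, of each tested probe set of AGO3, TNRC6A and XPO5 on the 6 arrays, with circles and triangles for arrays A and B and bars for group means. Both siPPP2R2A_2 arrays are above scramble on all 4 AGO3 probe sets, the siPPP2R2A_1 arrays are highest on 234734_s_at and 224705_s_at of TNRC6A, and of the XPO5 probe sets 223055_s_at alone has its siPPP2R2A_2 arrays (411 and 422) clear of the rest.

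The contrast between the targeting siRNAs asks where they differ from each other, and it does not use the scramble level. Limma called 0 of 24 members, against 0% of all probe sets, and 5 had an unadjusted p under 0.05 (20.8%, against 15% of all), of which 2 were higher with siPPP2R2A_1 (7.69% of all probe sets) and 3 lower (7.31%). Both siPPP2R2A_1 arrays were above both siPPP2R2A_2 arrays for 8 members and below them for 8, against 23.7% and 23.9% of all probe sets. TNRC6A 234734_s_at (log2 difference siPPP2R2A_1 minus siPPP2R2A_2 of 0.52, adjusted p = 0.153) and XPO5 223055_s_at (0.42, adjusted p = 0.229) were higher with siPPP2R2A_1. AGO3 228932_at (-0.70, adjusted p = 0.179), AGO3 235782_at (-0.57, adjusted p = 0.276) and AGO4 227930_at (-0.47, adjusted p = 0.258) were lower with siPPP2R2A_1 than with siPPP2R2A_2. With an intensity trend 0 members were called, against 2.23% of all probe sets, TNRC6A 234734_s_at reaching an adjusted p = 0.0133 but not 1.5-fold. For DROSHA the 95% interval of this difference was -0.28 to 0.20 and for the brightest AGO1 probe set -0.17 to 0.33.

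The rest of the pathway was examined through 8 lists of partner genes, each gene on its brightest probe set. Of 110 genes 100 had a probe set of their own and 92 were tested. None was called with either siRNA by limma. At an unadjusted p under 0.05, 5 were higher and 5 lower with siPPP2R2A_1, and 5 were higher and 3 lower with siPPP2R2A_2, against 6.97% higher and 5.98% lower, and 8.63% higher and 8.11% lower, of all probe sets. Their median log2 change was 0.00 with both. With an intensity trend 1 was called with siPPP2R2A_1 and 3 with siPPP2R2A_2, close to the 1.61% and 3.11% of all probe sets. All of them were among the 27 tested silencing effectors. That list was singled out after its calls were seen.

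Those silencing effectors held the largest mean change among the 92, that of TNRC6C, a paralogue of TNRC6A. It read 162 and 197 with siPPP2R2A_1 and 202 and 256 with siPPP2R2A_2, against 115 and 94.7 with scramble (log2 changes 0.77 and 1.12, adjusted p = 0.2645 and 0.122). All 4 targeting arrays were above scramble. The third paralogue, TNRC6B, read 1263 and 1391 with siPPP2R2A_1 and 782 and 788 with siPPP2R2A_2, against 1107 and 1386 with scramble (log2 changes 0.10 and -0.66). CNOT7, a deadenylase of the CCR4-NOT complex, read 6255 and 5733 with siPPP2R2A_1 and 5473 and 5894 with siPPP2R2A_2, against 3580 and 3567 with scramble (log2 changes 0.74 and 0.67, adjusted p = 0.1385 and 0.115). With an intensity trend CNOT7 was called higher with both siRNAs, TNRC6C higher with siPPP2R2A_2 and TNRC6B lower with siPPP2R2A_2. TNRC6B and CNOT7 were chosen after their values were seen. Over all 27 tested effectors the median log2 change was 0.08 with siPPP2R2A_1 and 0.02 with siPPP2R2A_2.

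In the other lists the gene with the largest mean change was lower in 4 and higher in 3, and none was called. FKBP4, a cochaperone of HSP90 in Argonaute loading, read 2155 and 1969.7 with siPPP2R2A_1 and 2187.5 and 2177 with siPPP2R2A_2, against 3143 and 2609 with scramble (log2 changes -0.47 and -0.39, adjusted p = 0.293 and 0.256). METTL14, a subunit of the methyltransferase that marks primary microRNAs, had log2 changes of -0.47 and -0.32, and MIR100HG, a host transcript of microRNAs, -0.72 and -0.60 at signals of 95.3 to 195. TUT1, a terminal uridylyltransferase, had -0.86 and -0.06 with duplicates that differed more than 2-fold on siPPP2R2A_1. XPOT, the exporter of tRNAs, stood at 0.05 and 0.28, ANKRD52, a subunit of the phosphatase that acts on Argonaute, at 0.39 and 0.34, and PIWIL1, a germline Argonaute, at 0.31 and 0.30 with signals of 59.8 to 113.

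Interferon-stimulated genes, which respond to double-stranded RNA, were listed as a companion of siRNA delivery. The list was chosen with earlier results of these data known, so its counts describe these arrays and are not an independent test. All 22 tested lay above 0 with siPPP2R2A_1, with a median log2 change of 0.48, and 11 of 22 did with siPPP2R2A_2, with a median of 0.015. Over all probe sets 49.3% and 48.9% lay above 0. Of the 22, 12 were higher at an unadjusted p under 0.05 with siPPP2R2A_1, and 6 were higher and 4 lower with siPPP2R2A_2, against 6.97% higher, and 8.63% higher and 8.11% lower, of all probe sets. Limma called 0 of 22 with either siRNA. With an intensity trend 7 were called higher with siPPP2R2A_1, and 4 higher and 2 lower with siPPP2R2A_2, against 1.61% and 3.11% of all probe sets in either direction. IFI44L read 572 and 493 with siPPP2R2A_1 and 578 and 539 with siPPP2R2A_2, against 80.4 and 92.9 with scramble (log2 changes 2.61 and 2.68, adjusted p = 0.0842 and 0.0928). The summed signal of the listed genes was 57690 and 52622 with siPPP2R2A_1 and 42151 and 40242 with siPPP2R2A_2, against 40100 and 42284 with scramble. It was thus highest in the group where the bright TNRC6A probe sets were highest, and its part in those values was not tested.

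**Figure D4:**
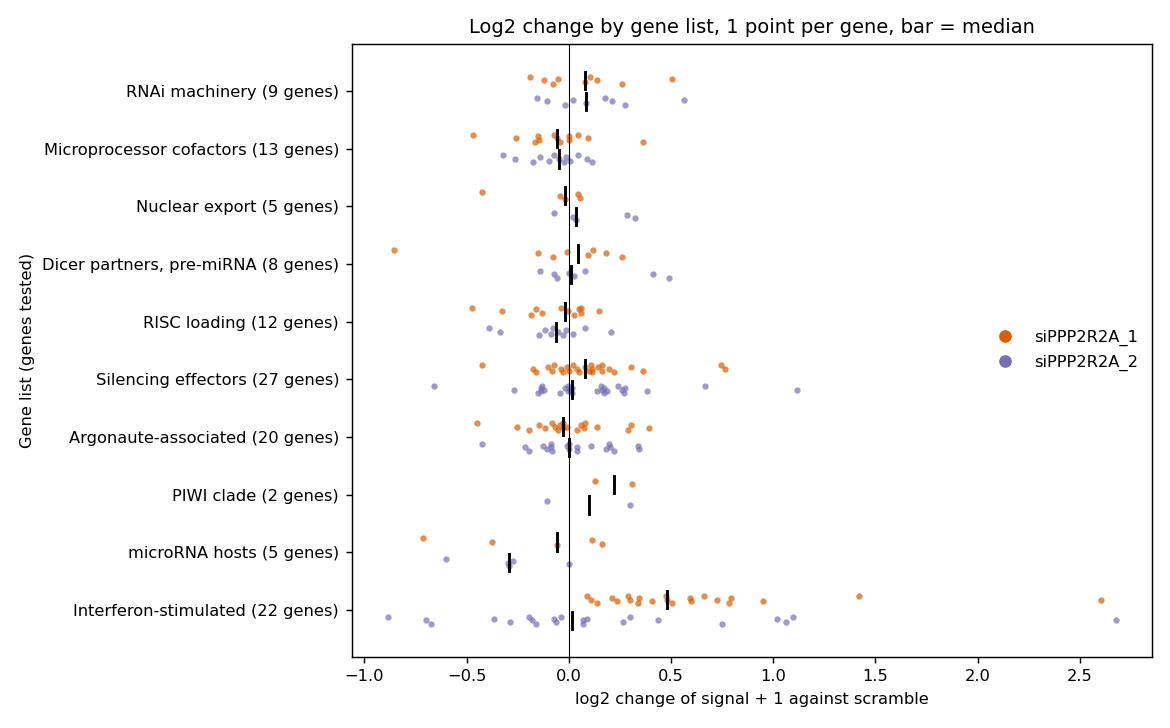
Log2 change (signal + 1) against scramble of each tested gene of the 10 lists on its brightest probe set, with siPPP2R2A_1 above siPPP2R2A_2 in each list and a black bar at the median. The medians of the interference lists with at least 5 tested genes lie between -0.29 and 0.08, and the interferon-stimulated genes lie at a median of 0.48 with siPPP2R2A_1 and 0.015 with siPPP2R2A_2.

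The probe sets most like that of AGO2 over the 6 arrays were those of TJP1, a tight junction scaffold (Pearson r = 0.994), SMCHD1, a chromatin protein (0.992), and CIZ1, a DNA replication factor (0.989). They were picked as the highest of 23968 probe sets over 6 arrays, on which AGO2 itself spans 0.45 log2 units, so the values are a description of these arrays.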

How the data were processed

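The 6 arrays of RT-112 cells, 2 per group, were used as the authors deposited them, as signal intensity on a linear scale. The software was Affymetrix Expression Console, per the submitters' processing notes, and no source used here gives its version or algorithm. Trimming 2% at each end, array means were 500.067 to 500.07, and no detection calls were used. Gene names came from the platform's probe table, in which 41091 probe sets had 1 symbol, 1801 several and 11721 none, besides 62 controls.

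Signals were compared as log2(signal + 1) with limma 3.58.1 in R 4.3.3, with 1 coefficient per group over all 6 arrays (3 residual and 1.74 prior degrees of freedom) and Benjamini-Hochberg adjustment over 29374 probe sets. The members and lists were chosen with earlier results of these data known. Each gene's brightest probe set is given in full, and from each other list the gene with the largest mean change. Arrays of the same letter did not deviate together (correlations -0.0333 to 0.0507), so the main fit did not pair them by letter. That check cannot show whether arrays of the same letter were handled together. Recovery of known changes was tested on simulated data. Other settings were quantile normalization, median centring, a pseudocount of 16, no filter, an intensity trend, 1 value per gene (brightest or mean), the letter as a block, and leaving out each array. Plots used matplotlib 3.10.9 in Python 3.11.15.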

Additional observations from a re-analysis of the deposited data

Results flagged for a closer look

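On AGO3 probe set 228932_at the siRNAs stood on opposite sides of scramble on every array: 172 and 166.5 with siPPP2R2A_1 and 309 and 245 with siPPP2R2A_2, against 177 and 197 with scramble. The log2 difference siPPP2R2A_1 minus siPPP2R2A_2 was -0.70 (95% interval -1.09 to -0.30), and limma did not call it (adjusted p = 0.179, and 0.103 with an intensity trend). It was the 1 tested member of 24 with this pattern. The share of all probe sets with the pattern was not computed, so that count has nothing to be set against. Outside the members, 225569_at, which carries AGO2 beside CASC7, stood the same way (log2 difference siPPP2R2A_1 minus siPPP2R2A_2 of -0.88, limma adjusted p = 0.137).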

How the results depend on the processing

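The small number of arrays limits precision: moderate changes of single probe sets fell below what the test recovered on simulated data. Over all probe sets, the mean of both siRNAs against scramble gave 1 call, 3 after quantile normalization, and 0 with a pseudocount of 16, without the filter, with the mean of the probe sets per gene, with the replicate block, and without any 1 array (0 to 0). An intensity trend called 472, 913, 493 and 655 probe sets (siPPP2R2A_1, siPPP2R2A_2, mean of both, siPPP2R2A_1 minus siPPP2R2A_2), of which 1 and 1 were members with siPPP2R2A_1 and siPPP2R2A_2. The brightest probe set per gene gave 51, 77, 66 and 20, and together with the trend, a setting chosen after seeing the data, 299, 472, 279 and 362, with 0 members. The replicate block changed no other call. Of 540 values of the member genes under 15 settings, 511 kept the direction of the brightest probe set in the main fit and 29 reversed. None crossed the threshold. These values were read on the brightest probe set, except in the setting that averages a gene's probe sets. Many of the 540 could not reverse, so the 511 overstate the stability. Dropping the filter, the trend, the brightest probe set per gene and the replicate block leave the log2 change of that probe set unchanged. So does leaving out an array of a group outside the contrast.

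Without 1 array at a time, XPO5 ranged from -0.2563 to 0.0084 with siPPP2R2A_1, -0.237 to 0.0276 with siPPP2R2A_2 and -0.2466 to 0.018 for the mean, and from -0.0903 to 0.0518 for siPPP2R2A_1 minus siPPP2R2A_2. AGO2 ranged from -0.0432 to 0.2049 with siPPP2R2A_1 and -0.1609 to 0.0872 for the mean, and AGO4 from -0.1095 to 0.1934 for the mean. With siPPP2R2A_2, AGO1 ranged from -0.0147 to 0.0593, DROSHA from -0.0413 to 0.0054 and DICER1 from -0.0329 to 0.2017 (mean of both -0.0541 to 0.0632). TARBP2 ranged from -0.1146 to 0.0389 for siPPP2R2A_1 minus siPPP2R2A_2. Quantile normalization moved DICER1 for the mean to -0.0062. Averaging a gene's probe sets, which brings in the dim ones, gave AGO4 0.0639, -0.6778, -0.3069 and 0.7417 in the 4 contrasts, AGO1 -0.0994 with siPPP2R2A_2 and -0.0392 for the mean, and DICER1 -0.6001 and -0.7436. With siPPP2R2A_1 it moved DICER1 from -0.08 to -0.89 and TARBP2 from 0.14 to 0.82. For siPPP2R2A_1 minus siPPP2R2A_2 it gave TARBP2 0.4798, TNRC6A -0.157 and XPO5 0.1531. With siPPP2R2A_2 the untested AGO4 probe sets entered its average at -2.30 and -0.22, and those of DICER1 entered at 0.29, -1.72 and -2.27. Why probe sets of 1 gene, or single arrays, differed was not tested. AGO3 with siPPP2R2A_2 ranged from 0.43 to 0.70 over the 15 settings, with adjusted p from 0.0543 to 0.492 by limma.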
